A study of Homo sapiens with 12 samples.

Results

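Cyclins, kinases and checkpoint genes that drive cells into and through mitosis were followed by RNA-seq in SNU308, a line of human gallbladder cancer cells. The 10 genes were CCNB1, CCNB2, CCNA2, CDK1, PLK1, AURKA, AURKB, BUB1, TTK and CDC20, chosen by name as genes of mitotic entry and of the spindle checkpoint, with earlier results of these data known. The files listed 60617 genes, of which 17620 were expressed enough to be tested. All 10 genes were found and passed that filter, with at least 289 estimated counts in every sample.

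Cyclin A2 and the B-type cyclins are regulatory subunits of the kinase CDK1, and the complex of cyclin B with CDK1 is the switch that starts mitosis. PLK1 and AURKA help to turn that switch on and build the spindle, AURKB corrects faulty attachments of chromosomes, and BUB1 and TTK hold the cell before anaphase until all chromosomes are attached. CDC20 then activates the anaphase-promoting complex, the ubiquitin ligase that marks cyclin B for destruction and ends mitosis. Transcripts of these genes accumulate in late S and G2 phase and are low in resting and G1 cells, so their levels in bulk RNA are widely used as a readout of cycling cells.

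Wild-type SNU308 cells were transfected with siRNA at 25 nM, and RNA was taken at day 3. There were 4 samples with a non-targeting control siRNA (NTC) and 4 with each of 2 siRNAs against CEACAM6, a cell surface glycoprotein, named siCEACAM6#2 and siCEACAM6#3. The groups therefore shared the line, the transfection and the time, and the knockdown was transient. The series describes the 4 replicates of a group as separate experiments, all in 1 cell line. The comparisons asked whether lowering CEACAM6 changed expression, and both comparisons with NTC used the same NTC samples.

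Total estimated counts were close to each other in the 12 samples, from 21799476 to 22059456. The mitochondrial share of the counts was 11.8% to 12.9% in NTC and 12.2% to 13.3% with siCEACAM6#2. With siCEACAM6#3 it was 12.5% in replicate 1 and 14.3% to 15.3% in replicates 2 to 4. NTC samples held 577 ± 40.6 CPM of CEACAM6 (SD, n = 4; CPM are counts scaled to library size with TMM factors). The siCEACAM6#2 samples held 328 ± 29.6 CPM and the siCEACAM6#3 samples 418 ± 22.1 CPM. All 8 knockdown samples were below the lowest NTC sample, with log2 fold changes of -0.82 (adjusted p = 2.71e-05, limma-voom with Benjamini-Hochberg adjustment) and -0.46 (adjusted p = 0.0151, limma-voom). Leaving out any of 4 samples (NTC replicates 2, 3 and 4 and siCEACAM6#3 replicate 3) ended the siCEACAM6#3 call, with an adjusted p of up to 0.0792 in limma-voom. All 8 markers of biliary epithelium were expressed, with a summed 7821 to 8896 TPM (a level that accounts for transcript length). Of the leukocyte markers, CD68, which other cells also express, had a mean of 34.7 TPM in NTC, 37.1 TPM with siCEACAM6#2 and 45.1 TPM with siCEACAM6#3. LYZ had a mean of 0.132, 0.142 and 1.18 TPM in these groups. CD68, LYZ, PTPRC and CD3E had their highest mean with siCEACAM6#3, and their part in the results was not tested. The defining leukocyte marker PTPRC was at 0 to 0.249 TPM, and the hepatocyte markers summed to at most 0.438 TPM.

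Promoter sequence was examined because the 10 genes are known as cell cycle genes that share promoter elements. RefSeq promoters, 250 bases before to 50 after a start site in GRCh38.p14, were at hand for 8 of the 10 genes; AURKA and TTK had no entry. Motifs were searched on both strands: CCAAT, the core of the NF-Y site, and TTTGAA or TTCGAA, forms of the cell cycle genes homology region. The stretches shown are the last 130 bases before the start for the genes that fell and for CCNB2 and PLK1. CDC20, CCNB2 and PLK1 hold both kinds of motif, as do CDK1 and BUB1, which are not shown. CCNB1 holds CCAAT but neither TTTGAA nor TTCGAA. Capitals mark the matches.

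CCNB1, chr5:69167020-69167149, plus strand: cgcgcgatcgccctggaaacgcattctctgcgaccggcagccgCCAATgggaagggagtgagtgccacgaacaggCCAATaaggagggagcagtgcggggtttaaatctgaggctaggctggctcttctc

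CDC20, chr1:43358851-43358980, plus strand: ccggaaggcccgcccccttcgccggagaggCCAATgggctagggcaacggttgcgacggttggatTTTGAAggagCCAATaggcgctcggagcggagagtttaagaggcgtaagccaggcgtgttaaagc

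CCNB2, chr15:59105016-59105145, plus strand: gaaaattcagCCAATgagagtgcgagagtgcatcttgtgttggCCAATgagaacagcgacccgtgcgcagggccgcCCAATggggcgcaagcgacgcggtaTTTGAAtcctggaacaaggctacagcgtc

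PLK1, chr16:23678759-23678888, plus strand: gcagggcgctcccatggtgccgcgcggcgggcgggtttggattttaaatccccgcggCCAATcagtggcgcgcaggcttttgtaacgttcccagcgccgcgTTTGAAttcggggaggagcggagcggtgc

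CCAAT was in the promoter of 8 of 8 genes, and in 39.7% of all 27305 genes in the table (34.6% of 35116 promoters). In CCNB1 it began 87 and 55 bases before the start, at -87 and -55, and in CDC20 at -100 and -55. In CCNB2 it began at -120, -87, -54 and, outside the stretch shown, at -244. TTTGAA was in the promoters of CCNB2, CDK1, PLK1 and CDC20, and in 18.2% of all genes. In CDC20 it began at -65 and, on the other strand, at -178. In CCNB2 and in PLK1 it began at the same distance, -29. TTCGAA was in that of BUB1, just after the start at position 2, and in 1.82% of all genes. Both motif kinds stood together in 5 of 8 genes, and in 7.85% of all genes. GGCGGGAA, a form of the E2F site, was in 0 of 8 promoters and in 3.79% of all genes. These matches describe letters in the window and were not tested for binding.

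In NTC the 10 genes spanned an order of magnitude in level. PLK1 was highest at 84.9 ± 5.18 TPM (SD, n = 4), followed by CCNB1 at 66.2 ± 2.75, CDC20 at 63.5 ± 1.87 and CCNB2 at 57.4 ± 2.27. The Aurora kinases came next, with AURKB at 37.1 ± 4.82 TPM and AURKA at 34.4 ± 0.524 TPM. CDK1 was at 29.1 ± 1.70 TPM, CCNA2 at 24.7 ± 1.77, BUB1 at 14.8 ± 0.331 and TTK lowest at 8.44 ± 0.994. Neighbours in this order did not overlap between the 4 NTC samples, except for CCNB1 with CDC20 and for AURKB with AURKA. PLK1 stood at the percentile 91.8 of tested genes by TPM and TTK at 50.03. With siCEACAM6#2 the order of the means was the same, and with siCEACAM6#3 AURKA and AURKB changed places.

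With both siRNAs, all 10 genes had a mean level below NTC. For CCNB1 and CDC20 the difference passed the test with siCEACAM6#2 and for the average of both siRNAs, and with siCEACAM6#3 it passed for none. With siCEACAM6#2, 2 of the 10 genes fell at an adjusted p under 0.05 (limma-voom, Benjamini-Hochberg adjustment over all genes tested), where 0.641% of all tested genes did. With siCEACAM6#3, 0 of 10 passed, where 0.017% of all tested genes fell. For the average of both siRNAs, CCNB1 and CDC20 passed, where 0.0908% did. The same model without adjustment placed 8, 9 and 9 of the 10 genes lower at p under 0.05 in the 3 contrasts, against 7.12%, 6.5% and 6.82% of all tested genes. For siCEACAM6#3, edgeR called 0 of the 10 genes and DESeq2 called CCNB1 and CDC20.

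The log2 fold changes were small. Their median was -0.27 with siCEACAM6#2 (range -0.35 to -0.12), -0.24 with siCEACAM6#3 (range -0.33 to -0.04) and -0.23 for the average (range -0.34 to -0.08), while the median over all tested genes was 0.00 in each. Negative values were found for 10 of 10 genes in each contrast, against 49.9%, 51.1% and 50.9% of all tested genes. In bulk RNA, fewer cells in late S, G2 and mitosis and less of these transcripts per cell cannot be told apart.

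**Figure D1:**
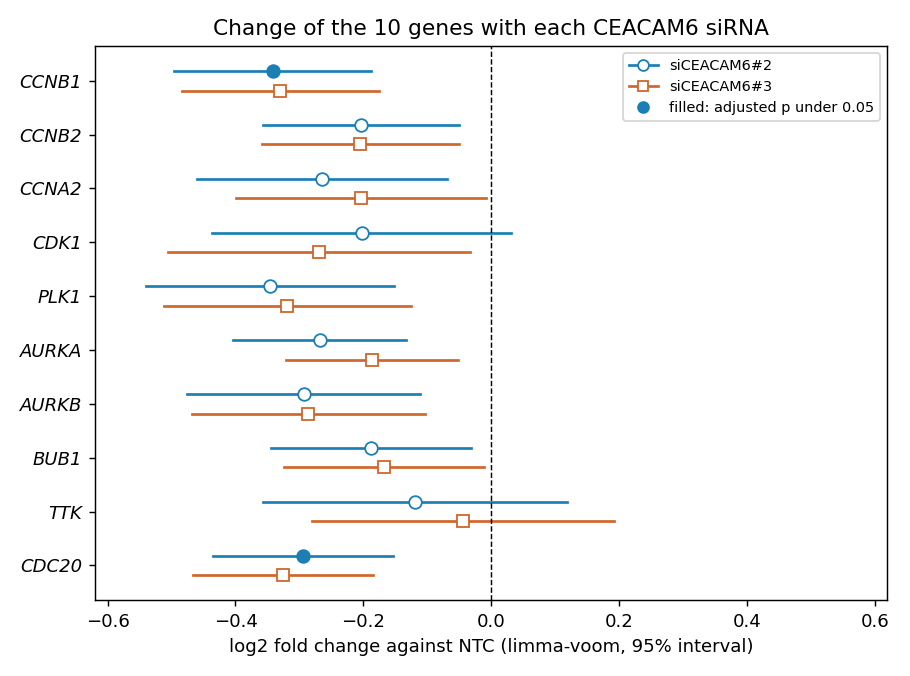
Log2 fold change against NTC (x axis) of each of the 10 genes (y axis) with siCEACAM6#2 (blue circles) and siCEACAM6#3 (orange squares), with 95% intervals from limma-voom; filled symbols passed an adjusted p under 0.05. All 20 estimates lie below 0, from -0.35 to -0.04, and the 2 filled symbols are CCNB1 and CDC20 with siCEACAM6#2.

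CCNB1 encodes cyclin B1, the main mitotic partner of CDK1 (chr5:69167135-69178245, GRCh38, 9 exons in the canonical transcript). Its level was 72.0, 70.0, 70.3 and 68.8 CPM in the 4 NTC samples, 65.2, 52.4, 51.5 and 53.6 CPM with siCEACAM6#2 and 62.5, 52.4, 55.4 and 53.8 CPM with siCEACAM6#3. All 8 knockdown samples were below the lowest NTC sample, and replicate 1 of each siRNA lay closest to NTC. CCNB1 fell with siCEACAM6#2 by 0.34 on the log2 scale (SE 0.07, limma-voom, adjusted p = 0.0299), to 79.2% of the NTC mean. With siCEACAM6#3 it was at 79.7% of NTC, a log2 fold change of -0.33 (95% interval -0.48 to -0.18), which did not pass (limma-voom, adjusted p = 0.109). The average of both siRNAs gave -0.34 (limma-voom, adjusted p = 0.0332). The siCEACAM6#2 call was lost without any NTC sample or without replicate 2, 3 or 4 of siCEACAM6#2, at an adjusted p of up to 0.135 in limma-voom. In CPM the NTC samples of CCNB1 were also the tightest of the 10 genes. Their coefficient of variation was 1.90%, against 11.5% and 8.05% with the siRNAs. In TPM they were not the tightest, at 66.2 ± 2.75 against 34.4 ± 0.524 for AURKA (SD, n = 4).

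CCNB2 encodes cyclin B2, the other B-type cyclin of dividing somatic cells (chr15:59105126-59125045, 9 exons). NTC samples had 56.0, 56.3, 58.9 and 53.9 CPM, siCEACAM6#2 samples 52.9, 50.7, 45.0 and 47.2 CPM and siCEACAM6#3 samples 56.2, 47.7, 48.6 and 43.4 CPM. The siCEACAM6#2 samples did not overlap with NTC, and of the siCEACAM6#3 samples only replicate 1 did. The log2 fold change was -0.20 with either siRNA (SE 0.07) and did not pass (limma-voom, adjusted p = 0.210 and 0.262).

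CCNA2 encodes cyclin A2, which acts with CDK2 in S phase and with CDK1 in G2 (chr4:121816444-121823883, 8 exons). It was at 52.9, 51.9, 50.3 and 46.6 CPM in NTC, at 50.3, 38.3, 40.4 and 39.8 CPM with siCEACAM6#2 and at 50.4, 41.5, 46.5 and 37.5 CPM with siCEACAM6#3. In both siRNA groups replicate 1 stood within the NTC range and the other samples below it. Neither log2 fold change, -0.26 and -0.20, passed (limma-voom, adjusted p = 0.201 and 0.386).

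CDK1, the kinase that these cyclins activate (chr10:60778331-60794852, 8 exons), had 38.7, 38.5, 37.3 and 35.6 CPM in NTC. It had 38.9, 28.5, 32.2 and 31.6 CPM with siCEACAM6#2 and 38.8, 27.8, 34.0 and 25.5 CPM with siCEACAM6#3. Replicate 1 of each siRNA was above every NTC sample and the other 6 samples were below every NTC sample. This gave siCEACAM6#3 the largest coefficient of variation of the 10 genes, 19.1%, against 3.76% in NTC. The log2 fold changes of -0.20 (95% interval -0.44 to 0.03) and -0.27 (-0.50 to -0.03) did not pass (limma-voom, adjusted p = 0.454 and 0.339).

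PLK1, the Polo-like kinase that promotes mitotic entry and spindle assembly (chr16:23677656-23690367, 10 exons), was at 132, 119, 133 and 122 CPM in NTC. It was at 126, 92.6, 93.7 and 90.1 CPM with siCEACAM6#2 and at 113, 92.6, 96.1 and 105 CPM with siCEACAM6#3. The siCEACAM6#3 samples were all below NTC, while with siCEACAM6#2 replicate 1 lay inside the NTC range and 3 samples lay below it. Its values of -0.35 and -0.32 on the log2 scale (SE 0.09) were close to those of CCNB1 but did not pass (limma-voom, adjusted p = 0.0795 and 0.180).

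AURKA, the Aurora kinase of centrosomes and spindle poles (chr20:56369389-56392337, 9 exons), had 49.4, 50.1, 53.0 and 48.9 CPM in NTC. It had 46.9, 39.8, 39.8 and 41.0 CPM with siCEACAM6#2 and 48.1, 44.1, 42.4 and 42.5 CPM with siCEACAM6#3. All 8 knockdown samples were below the lowest NTC sample. The log2 fold changes were -0.27 and -0.19 (SE 0.06), and with siCEACAM6#2 the adjusted p of 0.0507 from limma-voom stood just outside the threshold (0.254 with siCEACAM6#3). Both edgeR, with its quasi-likelihood test, and DESeq2 called AURKA lower with siCEACAM6#2, while over all alternatives, which include log2 TPM values and leaving out 1 sample, the adjusted p ran from 0.00322 to 0.212.

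AURKB, the Aurora kinase of the chromosomal passenger complex (chr17:8204733-8210600, 9 exons), had 28.2, 23.2, 28.7 and 29.6 CPM in NTC, with replicate 2 lowest. It had 25.0, 23.0, 21.3 and 20.2 CPM with siCEACAM6#2 and 23.7, 22.6, 20.4 and 22.9 CPM with siCEACAM6#3. Apart from that NTC replicate, all knockdown samples were below NTC. The log2 fold change of -0.29 with either siRNA (SE 0.09) did not pass (limma-voom, adjusted p = 0.118 and 0.197).

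BUB1, a kinase that recruits checkpoint proteins to kinetochores (chr2:110637528-110678063, 25 exons), had 33.4, 37.6, 40.7 and 38.1 CPM in NTC. It had 34.8, 30.4, 33.5 and 32.5 CPM with siCEACAM6#2 and 36.6, 30.7, 34.5 and 31.4 CPM with siCEACAM6#3. In each siRNA group 2 of 4 samples lay within the NTC range. Values of -0.19 and -0.17 on the log2 scale (SE 0.07) did not pass (limma-voom, adjusted p = 0.261 and 0.373).

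TTK, the kinase also named MPS1 that starts checkpoint signalling (chr6:80003887-80042527, 22 exons), was the member with the smallest differences. It was at 17.0, 19.5, 17.5 and 17.1 CPM in NTC, 18.2, 14.4, 15.9 and 17.0 CPM with siCEACAM6#2 and 21.2, 16.7, 18.2 and 13.5 CPM with siCEACAM6#3. The groups overlapped widely, and both the highest and the lowest of the 12 samples were siCEACAM6#3 samples. The log2 fold changes were -0.12 (95% interval -0.36 to 0.12) and -0.04 (-0.28 to 0.19), with adjusted p of 0.716 and 0.903 from limma-voom. For TTK, siCEACAM6#3 versus NTC, leaving out NTC replicate 2 gave 0.0046 and leaving out replicate 4 of siCEACAM6#3 gave 0.069 on the log2 scale.

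CDC20, the activator of the anaphase-promoting complex (chr1:43358981-43363203, 11 exons), had 68.9, 68.2, 76.9 and 73.9 CPM in NTC. It had 66.8, 55.9, 57.0 and 55.5 CPM with siCEACAM6#2 and 60.4, 57.8, 53.3 and 58.1 CPM with siCEACAM6#3. All 8 knockdown samples were below the lowest NTC sample. CDC20 fell with siCEACAM6#2 by 0.29 on the log2 scale (SE 0.07, limma-voom, adjusted p = 0.0403), to 81.7% of the NTC mean. With siCEACAM6#3 it was at 79.8% of NTC, a log2 fold change of -0.33 (95% interval -0.47 to -0.18), which did not pass (limma-voom, adjusted p = 0.102). The average gave -0.31 (limma-voom, adjusted p = 0.0332). The siCEACAM6#2 call was lost without the same 7 samples as that of CCNB1, at an adjusted p of up to 0.161 in limma-voom.

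**Figure D2:**
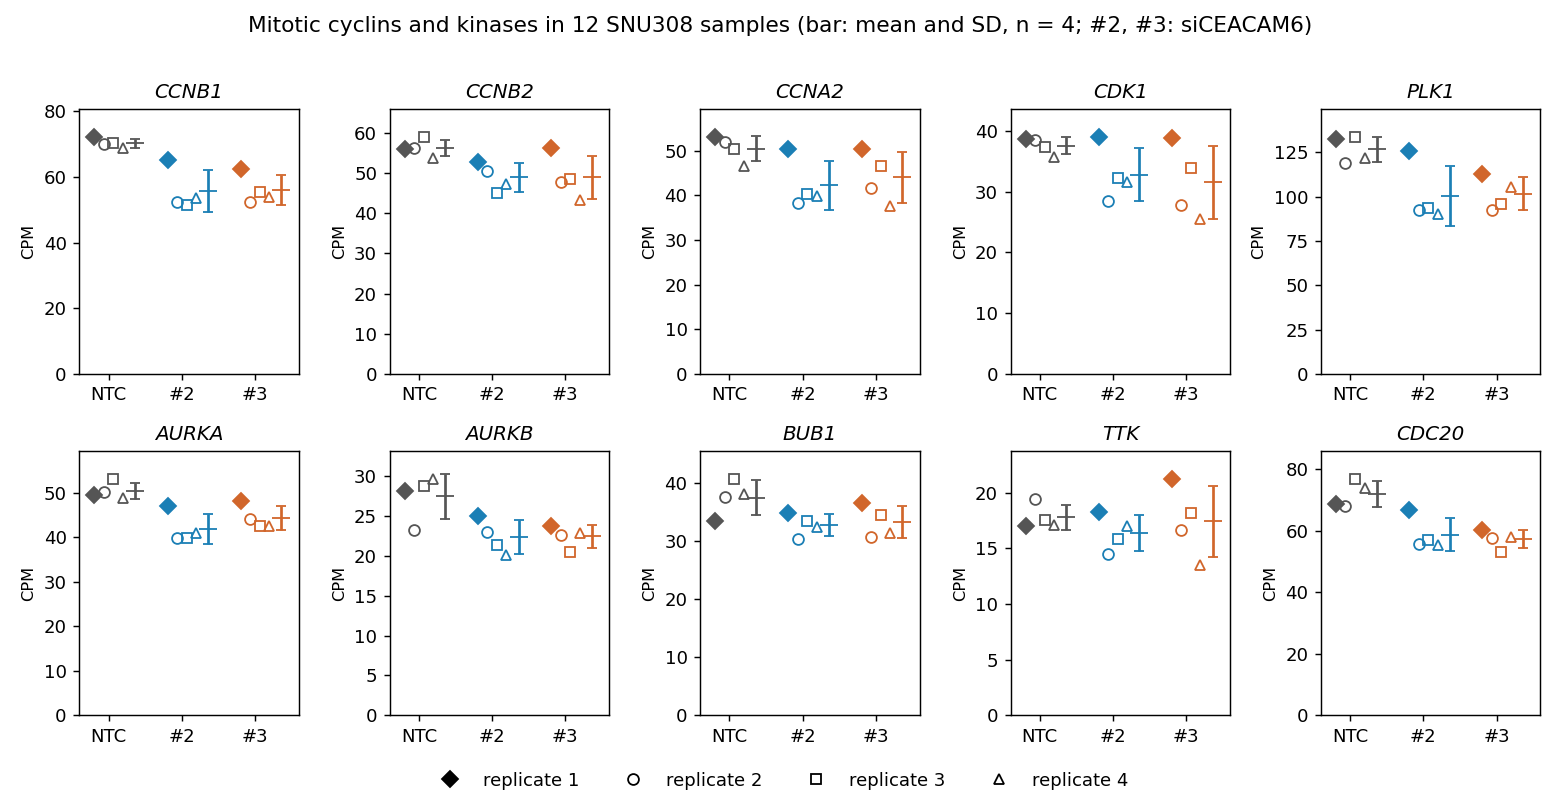
Level of each of the 10 genes in CPM (y axis, from 0) in the 12 samples by group (x axis), with the mean and SD of 4 replicates as a bar at the right of each group. Replicate 1 (filled diamonds) is the highest sample of both siRNA groups in all 10 panels, and in CCNB1, AURKA and CDC20 all knockdown samples still lie below NTC.

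Counted by separation of the samples, all 4 siCEACAM6#2 samples were below the lowest NTC sample for CCNB1, CCNB2, AURKA and CDC20, which is 4 of 10 genes against 5.42% of all tested genes. For siCEACAM6#3 the 4 genes were CCNB1, PLK1, AURKA and CDC20, against 3.29%. CCNB1, AURKA and CDC20 were lower in all 8 knockdown samples, against 0.874% of all tested genes.

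In the sum of these genes, replicate 1 of both siRNAs stood apart from the other knockdown samples. All 10 genes were highest in replicate 1 within siCEACAM6#2, and all 10 within siCEACAM6#3, where 30.7% and 28% of all tested genes were, and 14.5% were in both. In NTC, 3 of 10 were highest in replicate 1. Summed over the 10 genes, replicate 1 held 96.0% of the NTC mean with siCEACAM6#2 and 93.5% with siCEACAM6#3, against 78.0% to 82.3% in the other 6 samples. CEACAM6 was highest in replicate 1 within siCEACAM6#2 but not within siCEACAM6#3, and its part in this difference was not tested. It was at 61.2% of NTC in replicate 1 of siCEACAM6#2 and at 49.5% to 59.5% in the others of that group, and at 73.4% in replicate 1 of siCEACAM6#3 and at 67.0% to 75.9% in the others. The mitochondrial share of replicate 1 of siCEACAM6#3 was also the lowest of its group, and its part in the result was not tested. With siCEACAM6#2 the share was 12.3% in replicate 1, 13.3% in replicate 2, 13.2% in replicate 3 and 12.2% in replicate 4.

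**Figure D3:**
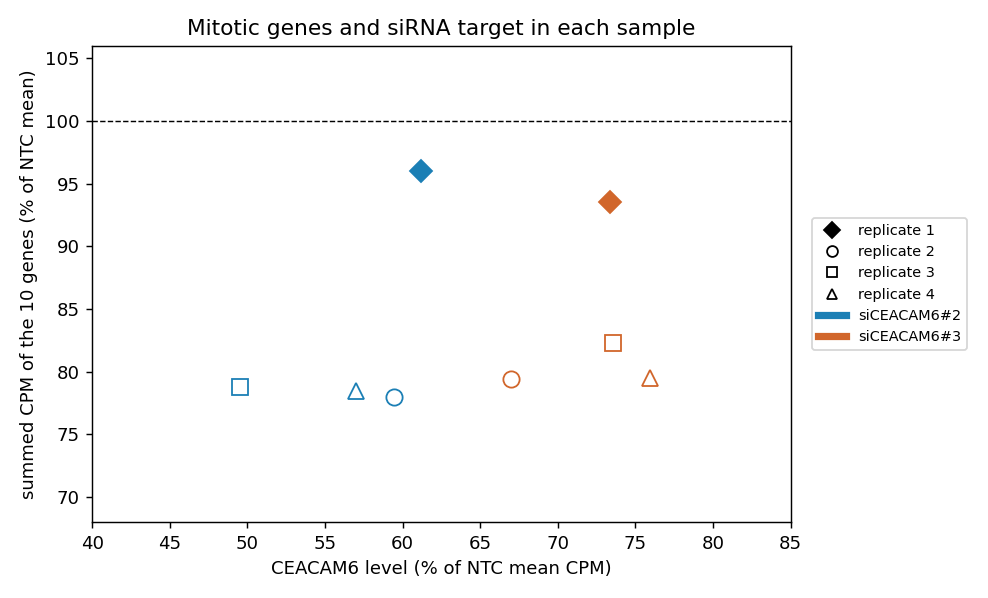
Summed CPM of the 10 genes (y axis) against CEACAM6 (x axis), each as a percentage of the NTC mean and on axes that do not start at 0, in the 8 knockdown samples (blue, siCEACAM6#2; orange, siCEACAM6#3; symbols by replicate). The filled diamonds, replicate 1, lie at 96.0% and 93.5% on the y axis, while the other 6 samples lie between 78.0% and 82.3% at CEACAM6 levels of 49.5% to 75.9%.

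Which genes passed changed with the samples included. Leaving out siCEACAM6#2 replicate 1 raised the genes that passed with siCEACAM6#2 from 2 to 5, namely CCNB1, CCNA2, PLK1, AURKA and CDC20. Leaving out any NTC sample, or replicate 2, 3 or 4 of siCEACAM6#2, lowered them to 0. With siCEACAM6#3, CCNB1 and CDC20 passed when either siCEACAM6#2 replicate 1 or siCEACAM6#3 replicate 1 was left out, and 0 genes passed when any other sample was. For the average, the count ran from 0, without any NTC sample, replicate 2, 3 or 4 of siCEACAM6#2 or replicate 2 or 3 of siCEACAM6#3, to 4 without replicate 1 of siCEACAM6#2 and 5 without that of siCEACAM6#3. Without replicate 1 of all 3 groups, a choice made after seeing these values, 4 genes passed with siCEACAM6#2 (CCNB1, PLK1, AURKA and CDC20) and 3 with siCEACAM6#3 (CCNB1, PLK1 and CDC20). The median log2 fold change of the 10 genes was then -0.33 and -0.28.

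**Figure D4:**
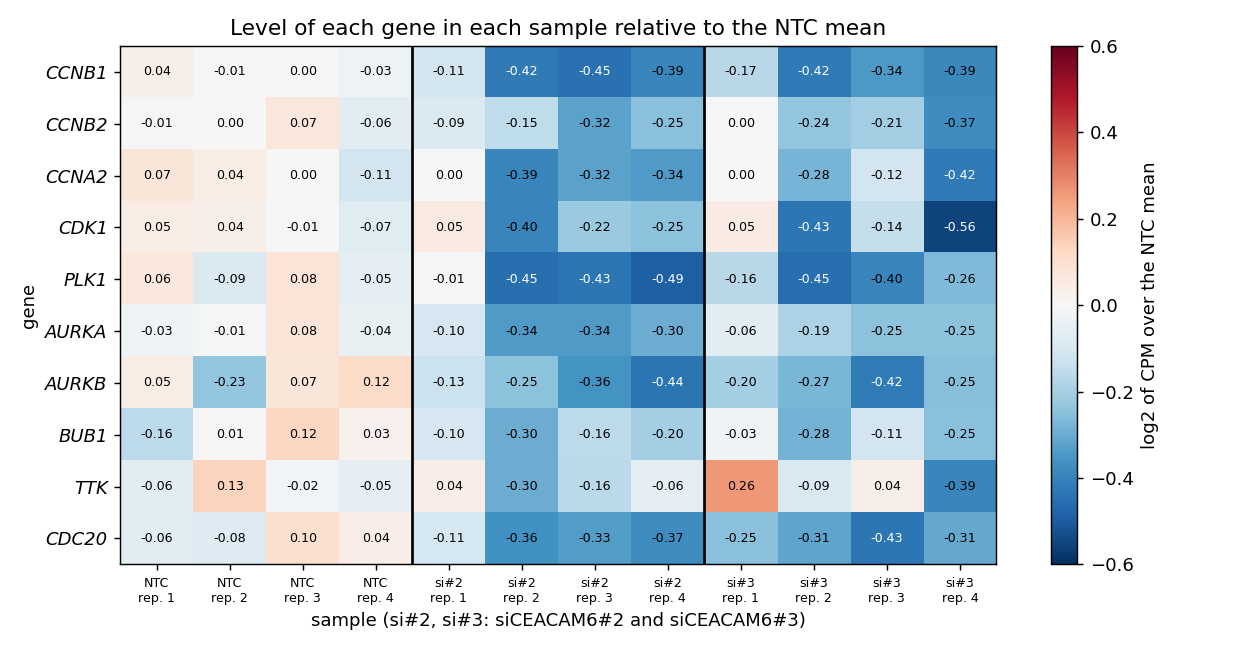
Log2 of the CPM over the NTC mean for each of the 10 genes (rows) in each of the 12 samples (columns), in blue where lower and in red where higher. Replicate 1 of each siRNA is paler than the rest of its group, except for TTK with siCEACAM6#3, where it is red at 0.26, and the lowest value is CDK1 in siCEACAM6#3 replicate 4 at -0.56.

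No difference between the siRNAs was detected in these genes. The log2 fold changes of siCEACAM6#3 against siCEACAM6#2 ran from -0.07 for CDK1 (95% interval -0.31 to 0.17) to 0.08 for AURKA (-0.05 to 0.22). By limma-voom, 0 of 10 genes passed at an adjusted p under 0.05, against 1.47% of all tested genes, and 0 at an unadjusted p under 0.05, against 13.3%. Both edgeR and DESeq2 also called 0. The samples of the 2 siRNAs overlapped for all 10 genes, while they were apart for 6.68% of all tested genes. CEACAM6 itself was higher with siCEACAM6#3 than with siCEACAM6#2, by 0.35 on the log2 scale (limma-voom, adjusted p = 0.0160). That call was lost without replicate 3 of either siRNA, on log2 TPM values and with only the siRNA groups in the fit.

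The partners of these genes were followed in 8 lists of 104 genes, of which all but CCNA1 and CCND2 were tested. With siCEACAM6#2, 5 of 102 fell and 2 rose, against 0.641% and 0.613% of all tested genes, and 70 had a negative log2 fold change, against 49.9%, with a median over the lists of -0.08. With siCEACAM6#3, 0 passed in limma-voom, 77 were negative, against 51.1%, and the median was -0.08. At an unadjusted p under 0.05, 27 genes were lower and 8 higher with siCEACAM6#2, against 7.12% and 6.5% of all tested genes. The counts were 29 and 0 with siCEACAM6#3, against 6.5% and 5.98%, and 29 and 6 for the average, against 6.82% and 6.06%. ESPL1 alone passed for the average of both siRNAs.

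Among 17 tested activators and substrates of CDK1, CDC25B fell with siCEACAM6#2, by 0.27 on the log2 scale (limma-voom, adjusted p = 0.0497). CDC25B encodes a phosphatase that activates CDK1, and the siCEACAM6#3 value of -0.17 did not pass (limma-voom, adjusted p = 0.288). CCNF, an F-box cyclin, had values of -0.26 and -0.31 that did not pass. Of 10 CDK1 inhibitors, GADD45A, a stress-induced inhibitor of the kinase, rose with siCEACAM6#2 from 88.6 ± 5.46 to 114 ± 14.3 CPM (SD, n = 4), by 0.36 on the log2 scale (limma-voom, adjusted p = 0.0426). Its level was 96.8 ± 8.41 CPM with siCEACAM6#3. The related GADD45B had larger values, 0.48 and 0.40, that did not pass (limma-voom, adjusted p = 0.324 and 0.452). The inhibitor p21, encoded by CDKN1A, had 110 ± 12.4 CPM in NTC, 125 ± 14.5 CPM with siCEACAM6#2 and 92.9 ± 8.92 CPM with siCEACAM6#3. Neither siRNA differed from NTC past the threshold in CDKN1A, but it was lower with siCEACAM6#3 than with siCEACAM6#2, at -0.43 (log2; limma-voom, adjusted p = 0.0287). That call was lost without replicate 1, 2 or 4 of siCEACAM6#2 or replicate 2 or 3 of siCEACAM6#3.

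Of 9 Aurora kinase cofactors, CDCA8 and TACC3 fell with siCEACAM6#2. CDCA8 encodes borealin of the AURKB complex and went from 37.1 ± 0.979 to 29.3 ± 2.77 CPM (log2 fold change -0.34, limma-voom, adjusted p = 0.0179). TACC3, a spindle protein that AURKA phosphorylates, went from 59.1 ± 2.34 to 49.1 ± 3.91 CPM (log2 fold change -0.27, limma-voom, adjusted p = 0.0482). BIRC5, the survivin subunit of the AURKB complex, had log2 fold changes of -0.35 and -0.29 with the siRNAs and did not pass (limma-voom, adjusted p = 0.0509 and 0.179).

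In the list of the anaphase-promoting complex, with 19 genes, ESPL1 fell with siCEACAM6#2. ESPL1 encodes separase, the protease that frees sister chromatids downstream of CDC20, and went from 35.9 ± 1.22 to 27.5 ± 2.30 CPM (log2 fold change -0.39, limma-voom, adjusted p = 0.00975). It was at 30.5 ± 1.79 CPM with siCEACAM6#3, and the average of both siRNAs passed at -0.31 (limma-voom, adjusted p = 0.0332). UBE2C, the ubiquitin-conjugating enzyme of the complex, had values of -0.29 and -0.35 that did not pass (limma-voom, adjusted p = 0.0830 and 0.109). The ESPL1 call for the average was lost without any NTC sample, replicate 2, 3 or 4 of siCEACAM6#2 or replicate 3 of siCEACAM6#3.

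None of the 12 spindle checkpoint partners passed in limma-voom with either siRNA, with 2 of 12 lower at an unadjusted p under 0.05 in each, against 7.12% and 6.5% of all tested genes, and medians of -0.12 and -0.11. BUB1B, which encodes the checkpoint protein BUBR1, had values of -0.25 and -0.15 (limma-voom, adjusted p = 0.0879 and 0.384).

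Of 16 transcription regulators of mitotic genes, 5 were lower and 1 higher with siCEACAM6#2 at an unadjusted p under 0.05, against 7.12% and 6.5% of all tested genes. With siCEACAM6#3, 3 were lower and 0 higher, against 6.5% and 5.98%, and the medians were -0.06 and -0.003. FOXM1, a transcription factor that acts on genes of G2 and mitosis, fell with siCEACAM6#2. FOXM1 went from 130 ± 6.71 to 99.4 ± 16.6 CPM, a log2 fold change of -0.40 (limma-voom, adjusted p = 0.0426). With siCEACAM6#3 it was at 101 ± 9.31 CPM, a log2 fold change of -0.37 that did not pass (limma-voom, adjusted p = 0.138) but that passed in limma-voom without siCEACAM6#2 replicate 1 or siCEACAM6#3 replicate 1, and in DESeq2 with all samples.

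The 8 tested G1 cyclins and kinases held no gene that differed from NTC past the threshold. Cyclin D1, encoded by CCND1, had a mean of 498 CPM in NTC, 554 CPM with siCEACAM6#2 and 476 CPM with siCEACAM6#3. CCND1 was lower with siCEACAM6#3 than with siCEACAM6#2, at -0.22 (log2; limma-voom, adjusted p = 0.0140), a call lost without siCEACAM6#2 replicate 2 or 3. CDK4 had log2 fold changes of -0.13 and -0.24. Of 12 other mitotic kinases, 4 were lower and 3 higher with siCEACAM6#2 at an unadjusted p under 0.05, against 7.12% and 6.5% of all tested genes. With siCEACAM6#3, 3 were lower and 0 higher, against 6.5% and 5.98%, and the medians were -0.01 and -0.06. PLK2, a Polo-like kinase best known as a stress-induced gene, rose with siCEACAM6#2 from 55.1 ± 1.95 to 81.8 ± 8.61 CPM, by 0.57 on the log2 scale (limma-voom, adjusted p = 0.00500). It was at 61.6 ± 8.15 CPM with siCEACAM6#3, lower than with siCEACAM6#2, at -0.41 (log2; limma-voom, adjusted p = 0.0247), a call that leaving out replicate 3 of either siRNA, or replicate 2 of siCEACAM6#2, ended.

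ESPL1 and PLK2 passed with siCEACAM6#2 whichever of the 12 samples was left out. On log2 TPM values neither passed, and nor did CDC25B, CDCA8, TACC3, FOXM1 or GADD45A. On log2(TPM + 1) the adjusted p from limma was 0.371 for ESPL1 and 0.0609 for PLK2. The calls between the siRNAs for CCND1, CDKN1A and PLK2 were also lost on log2 TPM values, and with only the siRNA groups in the fit. The calls of CDC25B, CDCA8, TACC3 and FOXM1 were lost without any NTC sample and without replicate 2, 3 or 4 of siCEACAM6#2. Those of CDC25B, TACC3, FOXM1 and GADD45A were also lost without siCEACAM6#3 replicate 3, and that of GADD45A without any NTC sample or replicate 2 or 3 of siCEACAM6#2.

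The 10 genes varied together over the 12 samples, as a description that includes the group differences. CCNB1 followed the mean of the other 9 most closely (Pearson's r = 0.963 of standardised log2 CPM) and TTK least (r = 0.589), with AURKB at r = 0.720. Outside the 10, and among 9873 genes with a mean of at least 10 CPM, the genes most like their mean were TYMS (r = 0.956), TPX2 (r = 0.954), KPNA2 (r = 0.954), FAM83D (r = 0.949) and NCAPH (r = 0.947). TYMS encodes thymidylate synthase, TPX2 is the activator of AURKA on the spindle, KPNA2 is an importin, FAM83D is a spindle protein and NCAPH is a subunit of condensin. With siCEACAM6#2 their log2 fold changes ran from -0.35 for TYMS to -0.19 for KPNA2, and none of the 5 passed with either siRNA in limma-voom. By Spearman's rank correlation only NCAPH of these 5 stayed among the 5 most alike.

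Pseudogenes named after the 10 genes held at most 9.34 estimated counts in any sample, at most 0.872% of their parent gene, for AURKAP1. The square root of the count, which measures counting error alone, was at most 5.88% of the count, in the TTK sample with 289 estimated counts.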

How the data were processed

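RNA-seq of 12 SNU308 samples, 4 each of NTC, siCEACAM6#2 and siCEACAM6#3 as the labels group them, was analysed from the deposited gene values. The authors trimmed reads with Trim Galore 0.6.4 and quantified them with kallisto against GENCODE transcripts of GRCh38.p13, and deposited unscaled estimated counts for each gene, 69.3% of the values above 0 not being whole. They also deposited TPM per gene. Kallisto divides reads shared by several transcripts by estimation, so near-identical copies are uncertain. The labels and the study's methods differ on read layout, transfection reagent and kallisto version, which the gene values do not settle.

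After rounding, the estimated counts were modelled with limma-voom (limma 3.58.1, edgeR 4.0.16, R 4.3.3; filterByExpr by group, TMM, voom, a mean per group, no covariates), which left 17620 of 60617 genes with 99.9% of the counts. A gene passed at a Benjamini-Hochberg adjusted p under 0.05 over all tested genes of the contrast. Names and positions came from GENCODE on GRCh38, with 60357 of the identifiers named. TPM, read as deposited, served for levels between genes and, as log2 values after adding 1 or 0.1, for an alternative. DESeq2 1.42.0 was another. The fit was tested on simulated data.

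The 10 genes and the partner lists were chosen with earlier results of these data known. Named besides the 10 were CEACAM6, up to 4 called genes of each partner list, the gene of each list with the largest average change at a mean of at least 1 CPM, and the 5 genes most like the mean of the 10.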

Additional observations from a re-analysis of the deposited data

Results flagged for a closer look

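Samples that stood apart from the other 3 of their group were sought by Dixon's test in 93 groups of 4 (the named genes in each group), of which 8 were found, and chance alone gives about 1 in 20. Of the 30 groups of the 10 mitotic genes, 5 were found, all in siCEACAM6#2 replicate 1. That sample had 65.2 CPM of CCNB1 (51.5 to 53.6 in the others), 50.3 of CCNA2 (38.3 to 40.4), 126 of PLK1 (90.1 to 93.7), 46.9 of AURKA (39.8 to 41.0) and 66.8 of CDC20 (55.5 to 57.0). It also had 72.8 CPM of BIRC5 (53.3 to 55.4) and 54.1 of CDC25B (44.4 to 45.8). BUB1B, a checkpoint gene, was at 29.9 CPM in siCEACAM6#3 replicate 4 and at 36.1 to 36.5 CPM in the others. The other 7 share siCEACAM6#2 replicate 1 and are not independent of each other.

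The siRNAs differed from each other past an adjusted p of 0.05 in limma-voom in 4 of the named genes and in 0 of the 10 mitotic genes. On the log2 scale, siCEACAM6#3 minus siCEACAM6#2 was 0.355 for CEACAM6, -0.218 for CCND1, -0.426 for CDKN1A and -0.412 for PLK2. None of these 4 differences passed on log2 TPM values or with only the siRNA groups in the fit. In the main fit, CEACAM6 was thus lowered less by siCEACAM6#3 than by siCEACAM6#2.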

How the results depend on the processing

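Every alternative left the members' median log2 fold change against NTC negative, from -0.33 to -0.23 with siCEACAM6#2, -0.29 to -0.17 with siCEACAM6#3 and -0.30 to -0.21 for the average. The number of the 10 genes that passed moved more. With siCEACAM6#2 (2 genes) it became 4 by DESeq2, 0 on log2(TPM + 1) and 0 on log2(TPM + 0.1), 1 without a filter, 7 with sample weights, 4 with only the groups of the contrast, and 0 or 4 at an adjusted p under 0.01 or 0.1. With siCEACAM6#3 (0 genes) it became 2 by DESeq2 and 4 with sample weights. For the average (2 genes) it became 5 by DESeq2, 0 on either TPM scale, 7 with sample weights, and 0 or 4 at the thresholds of 0.01 or 0.1. Leaving out 1 sample gave 0 to 5, 0 to 2 and 0 to 5 genes, and leaving out replicate 1 of all 3 groups, added after seeing the data, gave 4, 3 and 4. The causes were not tested. Over all genes the calls moved from 221 to between 5 and 1120 with siCEACAM6#2 and from 12 to between 2 and 382 with siCEACAM6#3. For the average they moved from 40 to between 2 and 899, and between the siRNAs from 259 to between 49 and 651. For TTK, siCEACAM6#3 versus NTC, the sign changed with sample weights (0.021), without NTC replicate 2 (0.0046) and without siCEACAM6#3 replicate 4, with a range of -0.14 to 0.069 when 1 sample was left out, never past the threshold.

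With the replicate block, 4 genes passed with siCEACAM6#2 and 2 with siCEACAM6#3. Samples with the same number had correlated deviations of -0.06 to 0.22, not over 0.1 in every pair. The highest value was that of replicate 1 of siCEACAM6#2 with replicate 1 of siCEACAM6#3. Whether samples with the same number were handled together cannot be told from these values and was not tested.

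The SE of the members' log2 fold changes with each siRNA, 0.06 to 0.11 with 4 samples a group, limits what could pass. The fit with only the groups of the contrast could not be made for the average, which uses all groups.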
